A study of Homo sapiens with 4 samples.

Results

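Keratins are the intermediate filament proteins of epithelial cells. A filament is built from pairs of 1 type I and 1 type II chain, so members of both types are made together, and the pair in use marks the kind of epithelium. KRT8 with KRT18 is the basic pair of simple epithelia such as the lining of the colon, where KRT19 and KRT20 are further type I partners, while KRT16 and KRT17 with KRT6A are known from skin as keratins induced by wounding and stress.

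The keratins described here are 10 genes, namely KRT6A, KRT7, KRT8, KRT16, KRT17, KRT18, KRT19, KRT20, KRT23 and KRT80, with every probe set that names one of them. A probe set is the group of array probes that reports 1 transcript or a few related ones. Members with values were 14 of the 54613 probe sets other than controls, and they covered 9 of the 10 genes. The platform annotation used here named 12 of them for 8 genes, and the 2 KRT17 probe sets, 205157_s_at and 212236_x_at, were taken as given by the rule that defined the members, since that annotation did not list them. KRT6A was not analysed here. Of the 9 genes, 6 encode type I keratins (KRT16, KRT17, KRT18, KRT19, KRT20 and KRT23) and 3 encode type II keratins (KRT7, KRT8 and KRT80). KRT18 lies on chromosome 12 next to KRT8, with KRT7 and KRT80 on the same chromosome, and the other type I members lie on chromosome 17.

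The values came from SW620, a line grown from a lymph node metastasis of a human colon adenocarcinoma. CD133+ cells were 1 clone on 2 arrays, and CD133- cells were 1 clone on 2 arrays. Both clones came from single cells sorted with magnetic beads for CD133, a surface protein used to mark colon cancer stem cells, were expanded in the same medium and were sorted for CD133 again before RNA was taken. The labels raise a possible difference between these populations in tumour formation and in drug sensitivity. CD133 status and clone cannot be told apart. The labels do not mention separate cultures for the 2 arrays of a clone, and the spread between them, on which every p-value rests, may therefore be technical.

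PROM1, which encodes CD133, had log2 signals of 8.46 and 8.73 in CD133+ cells, against 3.31 and 3.35 in CD133- cells (difference 5.26, SE 0.211, limma adjusted p = 4.21e-05), which checks the labels. Across the 15821 genes tested the replicates of either clone correlated with r = 0.992, and the 4 pairings of a CD133+ with a CD133- array gave r from 0.977 to 0.988. RNA length was read from ACTB, whose 3' probe set exceeded its 5' one by 0.709 and 1.92 log2 units in CD133+ cells, against 1.18 and 0.92 in CD133- cells. CD133+ replicate 2 had the highest of these values. For GAPDH the same comparison gave 0.0967 and 0.0899 in CD133+ cells, against 0.0169 and 0.026 in CD133- cells, near 0 on all arrays and slightly lower in CD133+ replicate 2 than in CD133+ replicate 1. Of 10 colon epithelial markers, 9 had a signal above the median probe set (4.53), led by EPCAM, an epithelial adhesion protein, at 12.05 in CD133+ and 12.31 in CD133- cells. Some lay close to that median, with LGALS4 at 4.68 in CD133+ and 4.73 in CD133- cells and FABP1 at 4.73 and 4.85. PHGR1 lay below it at 4.30 and 4.18. None of 3 leukocyte markers with a probe set lay above that median, against 2 of 5 for fibroblasts, 2 of 4 for endothelium and 1 of 3 for neuroendocrine cells. The brightest probe set of each gene was used, and probe sets differ in response, so this comparison is coarse. In limma, 0 of the 24 markers tested, all lists together, passed an adjusted p under 0.05. The summed log2 signals of 3 lists lay higher on both CD133+ arrays, at 71.62 to 71.95 in CD133+ cells against 70.57 to 71.13 in CD133- cells for colon epithelium, 11.83 to 11.85 against 11.33 to 11.63 for leukocytes and 12.93 to 13.42 against 12.31 to 12.66 for neuroendocrine cells. The sums for fibroblasts and endothelium overlapped. Within the colon list CEACAM5 had the largest difference, 0.68, while EPCAM (-0.26), VIL1 (-0.35), FABP1 (-0.12) and LGALS4 (-0.05) had negative ones. In the neuroendocrine list SYP differed by 0.54, CHGA by 0.20 and INSM1 by -0.05. These higher sums are thus not shifts of every marker. The part of these lists in the keratin differences was not tested.

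These keratins were chosen by their log2 signals in CD133+ against CD133- arrays, the contrast described below. Their differences are therefore a description, with the standard error of a limma fit to all 54613 probe sets and no p-value. Values are log2 signals after quantile normalization, differences are CD133+ minus CD133-, and ± gives the standard deviation (SD) of the 2 replicates. Probe sets differ in how strongly they respond, so levels are compared between arrays for 1 probe set and not between genes.

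KRT16 and KRT17 were lower in CD133+ cells by the widest margin of the 14 probe sets, KRT23 was higher, and KRT8, KRT18, KRT80 and the brighter of the KRT19 probe sets, whose signals were high on all 4 arrays, differed little. In 7 probe sets both CD133+ arrays lay below both CD133- arrays, where 20.4% of all probe sets did so, and in 1 probe set both lay above, where 23.5% did so. Groups thus did not overlap in 8 of the 14, against 43.9% of all probe sets. A difference of at least 2-fold was seen in 3 probe sets, all lower in CD133+ cells, against 0.714% of all probe sets lower and 0.143% higher by that much. The median difference over the 14 was -0.15, beside 0.02 over all probe sets. Because the members were chosen with this contrast in view, nothing is read from these shares. RNA came from whole cell populations, so fewer cells making a keratin and less of its RNA per cell cannot be told apart.

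**Figure D1:**
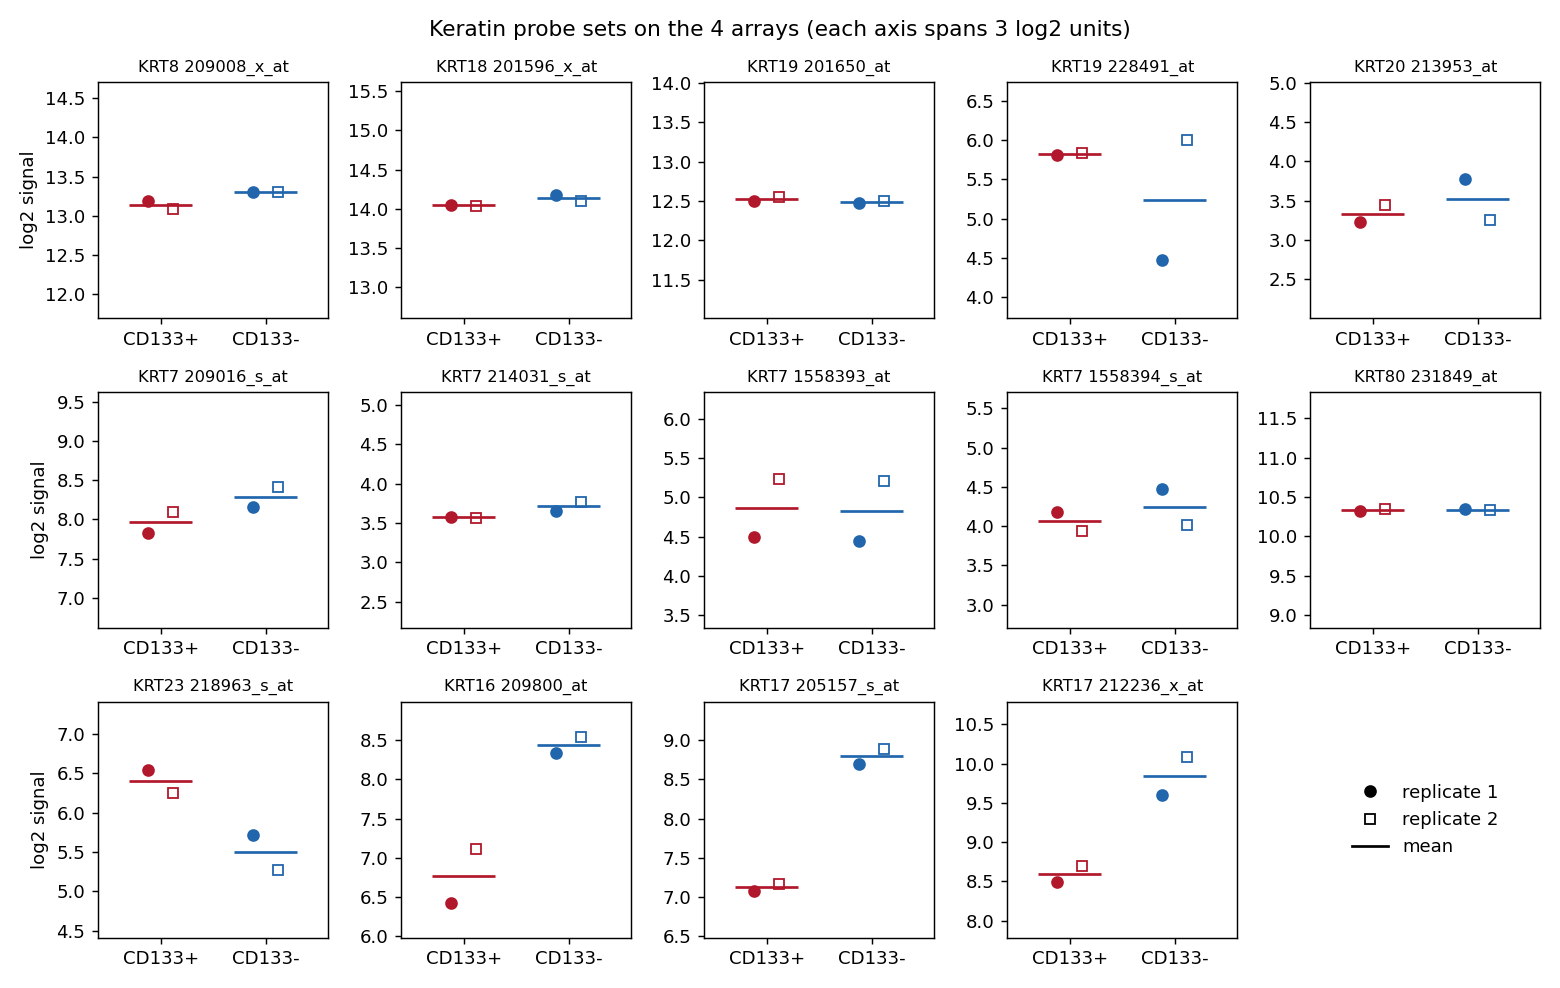
Log2 signal (vertical axis, 3 log2 units in each panel) of the 14 keratin probe sets in CD133+ cells (red) and CD133- cells (blue), with filled circles for replicate 1, open squares for replicate 2 and a line at the mean. KRT16 and both KRT17 probe sets sit lower on both CD133+ arrays, KRT23 sits higher, and KRT8, KRT18, KRT80 and the brighter KRT19 probe set are nearly level.

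KRT8 is the type II keratin of simple epithelia. Its probe set 209008_x_at had log2 signals of 13.19 and 13.09 in CD133+ cells, against 13.31 and 13.30 in CD133- cells. The groups did not overlap, and the gap between them (0.111) was slightly wider than the gap between the CD133+ replicates (0.0966). The difference was -0.17 (SE 0.0539), a signal 1.12-fold lower in CD133+ cells.

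KRT18 is the type I partner of KRT8. Its probe set 201596_x_at had 14.05 and 14.04 in CD133+ cells, against 14.18 and 14.10 in CD133- cells, a difference of -0.09 (SE 0.0440). The groups did not overlap, but the gap between them (0.0510) was narrower than the gap between the CD133- replicates (0.0818). These signals lay close to the highest value of any probe set on the arrays, 14.57 as deposited, where a true difference may be compressed, which was not tested. Affymetrix marks probe sets whose probes also match other transcripts with _x_at, and KRT8 and KRT18 have many pseudogene copies, so their values are uncertain to that extent.

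KRT19 is a type I keratin without the tail domain of the others and is widespread in simple epithelia. Its probe set 201650_at had 12.50 and 12.55 in CD133+ cells, against 12.47 and 12.50 in CD133- cells, a difference of 0.04 (SE 0.0584). The arrays of the clones ran into each other, and the difference was 0.00 in the values as deposited and -0.08 with each array centred on its median, so it has no settled direction. The dimmer KRT19 probe set, 228491_at, had 5.81 and 5.83 in CD133+ cells, against 4.47 and 6.0 in CD133- cells. Its difference of 0.58 (SE 0.437) rested on CD133- replicate 1 and was -0.18 without that array and 1.35 without CD133- replicate 2.

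KRT80 is a type II keratin found in many epithelia. Its probe set 231849_at had 10.32 and 10.35 in CD133+ cells, against 10.35 and 10.33 in CD133- cells. The groups overlapped, with a difference of 0.00 (SE 0.0925) that was -0.03 as deposited and -0.11 with centred arrays, a scaling that also moved the median of all genes tested, 0.0582 here, to -0.0506.

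KRT20 is the type I keratin by which pathologists recognise intestinal epithelium. Its probe set 213953_at had 3.23 and 3.44 in CD133+ cells, against 3.78 and 3.25 in CD133- cells. The arrays of the clones overlapped, and all but CD133- replicate 1 lay below 3.75, the mean level under which whole genes were left out of the gene tests. The difference of -0.18 (SE 0.192) turned to 0.09 without CD133- replicate 1, the array that held its highest value. CDX1 and CDX2 are intestinal transcription factors, and CDX1 is known to act on the KRT20 promoter. CDX1 averaged 6.40 ± 0.56 in CD133+ cells, against 6.0 ± 0.379 in CD133- cells (SD, n = 2 each), and differed by 0.39 (SE 0.306, limma adjusted p = 0.501). CDX2 averaged 6.30 ± 0.102 in CD133+ cells, against 6.14 ± 0.0429 in CD133- cells (SD, n = 2 each), and differed by 0.16 (SE 0.198, limma adjusted p = 0.685). Both were picked out after their values had been seen.

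The RefSeq promoter of KRT20 is shown because KRT20 is the keratin that marks the tissue of origin and was dim on all arrays. It was also picked because its sequence holds a match to the core of CDX sites. The window runs from 250 bases before to 50 bases after the start site, at chr17:40885193-40885492 on the minus strand of GRCh38.p14, and is written 5′ to 3′. Capitals mark the match to TTTATG, a core of CDX sites, which was searched on both strands together with the TATA box TATAAA.
KRT20 promoter: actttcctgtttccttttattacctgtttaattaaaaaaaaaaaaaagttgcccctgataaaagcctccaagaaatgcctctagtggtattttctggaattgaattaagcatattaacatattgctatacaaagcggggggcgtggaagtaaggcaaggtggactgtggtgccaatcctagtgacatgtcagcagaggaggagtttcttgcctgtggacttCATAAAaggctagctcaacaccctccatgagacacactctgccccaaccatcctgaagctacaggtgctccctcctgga
It held 1 match to TTTATG, on the reverse strand as CATAAA and starting 29 bases before the start site, and 0 matches to TATAAA. The window of KRT8, the only other member keratin with one at hand, held 0 matches to either motif. That window lies inside the span of the KRT8 gene and need not be the promoter of its main transcript, so nothing is read from it. Of the 35116 promoter windows of this length, 10.6% held TTTATG and 11.5% held TATAAA on either strand, without allowance for overlap of the motifs. Only exact matches were counted, and the stretch in capitals differs from the TATA box searched for in 1 base, the first. Whether that stretch acts as a CDX site, as a TATA box or as neither was not tested. A match describes letters and is not a measured binding site.

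KRT7 is a type II keratin of ducts and of simple epithelia outside the colon, where it is usually little expressed. It had 4 probe sets. The brightest, 209016_s_at, had 7.83 and 8.10 in CD133+ cells, against 8.16 and 8.41 in CD133- cells, a difference of -0.32 (SE 0.170). The groups did not overlap, but the gap between them (0.0535) was far narrower than the replicate gaps of 0.278 in CD133+ and 0.254 in CD133- cells. The difference was -0.18 without CD133+ replicate 1, -0.46 without CD133+ replicate 2 and -0.55 with centred arrays.

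The other KRT7 probe sets were dimmer. In 214031_s_at the values were 3.58 and 3.56 in CD133+ cells, against 3.65 and 3.77 in CD133- cells, lower on both arrays by a small margin (difference -0.14, SE 0.145). In 1558394_s_at they were 4.18 and 3.94, against 4.47 and 4.02 in CD133- cells, and the groups overlapped (difference -0.19, SE 0.219). In 1558393_at they were 4.49 and 5.23 in CD133+ cells, against 4.45 and 5.21 in CD133- cells, so that replicate 1 lay below replicate 2 by 0.734 and 0.760 in the 2 clones while the clones themselves differed by 0.03 (SE 0.335). The 4 probe sets of KRT7 thus gave 3 negative differences, 2 of them with no overlap, and 1 near 0.

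KRT23 is a type I keratin known to be induced by histone deacetylase inhibitors in cancer cell lines. Its probe set 218963_s_at had 6.55 and 6.25 in CD133+ cells, against 5.72 and 5.27 in CD133- cells. It was the only one of the 14 in which both CD133+ arrays lay above both CD133- arrays, and the gap between the groups (0.529) was wider than the replicate gaps of 0.300 in CD133+ and 0.448 in CD133- cells. The means were 6.40 ± 0.212 and 5.50 ± 0.317 (SD, n = 2 each), a difference of 0.90 (SE 0.233) or a 1.87-fold higher signal in CD133+ cells. Leaving out 1 array at a time gave 0.68 to 1.13.

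KRT16 is a type I keratin of stressed and rapidly dividing squamous epithelia. Its probe set 209800_at had 6.43 and 7.11 in CD133+ cells, against 8.34 and 8.54 in CD133- cells. Both CD133+ arrays were lower, and the gap between the groups (1.23) exceeded the replicate gaps of 0.682 in CD133+ and 0.2 in CD133- cells. The means were 6.77 ± 0.482 and 8.44 ± 0.141 (SD, n = 2 each), a difference of -1.67 (SE 0.237), or 3.18-fold lower in CD133+ cells. CD133+ replicate 2, the array with the highest ACTB 3' over 5' value, held the higher of the CD133+ signals, while the GAPDH values did not set that array apart. The difference was -2.01 without it and -1.33 without CD133+ replicate 1. The part of RNA length in this spread was not tested.

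KRT17 is a type I keratin of basal and appendage cells of skin that is often made together with KRT16. Its probe set 205157_s_at had 7.08 and 7.17 in CD133+ cells, against 8.70 and 8.89 in CD133- cells, with a gap between the groups (1.53) many times the replicate gaps of 0.0829 in CD133+ and 0.189 in CD133- cells. The means were 7.13 ± 0.0586 and 8.79 ± 0.134 (SD, n = 2 each), a difference of -1.67 (SE 0.153). The probe set 212236_x_at had 8.49 and 8.70 in CD133+ cells, against 9.60 and 10.08 in CD133- cells, a difference of -1.24 (SE 0.177), or 2.36-fold lower in CD133+ cells. Both probe sets were thus lower on both CD133+ arrays, and the differences ran from -1.76 to -1.57 and from -1.48 to -1.0 when 1 array at a time was left out.

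KRT16 and KRT17 are closely similar in sequence, and _s_at and _x_at mark probe sets that can detect more than 1 gene. The share of each gene in the signals of the KRT17 probe sets therefore cannot be told apart with certainty. The KRT16 probe set 209800_at carries neither mark, and whether it also detects KRT17 was not tested. The probe set of the pseudogene KRT17P5, 241828_x_at, had 3.75 and 3.58 in CD133+ cells, against 3.68 and 3.98 in CD133- cells. Markers of squamous basal cells were dim in both clones. KRT5 had 4.27 ± 0.0727 in CD133+ and 4.6 ± 0.230 in CD133- cells (SD, n = 2 each), KRT14 had 3.72 ± 0.219 and 3.93 ± 0.0425, and the desmosomal cadherin DSG3 averaged 4.06 and 3.97. The summed log2 signal of these 3 markers ran from 11.91 to 12.18 on the CD133+ arrays and from 12.20 to 12.80 on the CD133- arrays, and its part in the KRT16 and KRT17 differences was not tested.

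**Figure D2:**
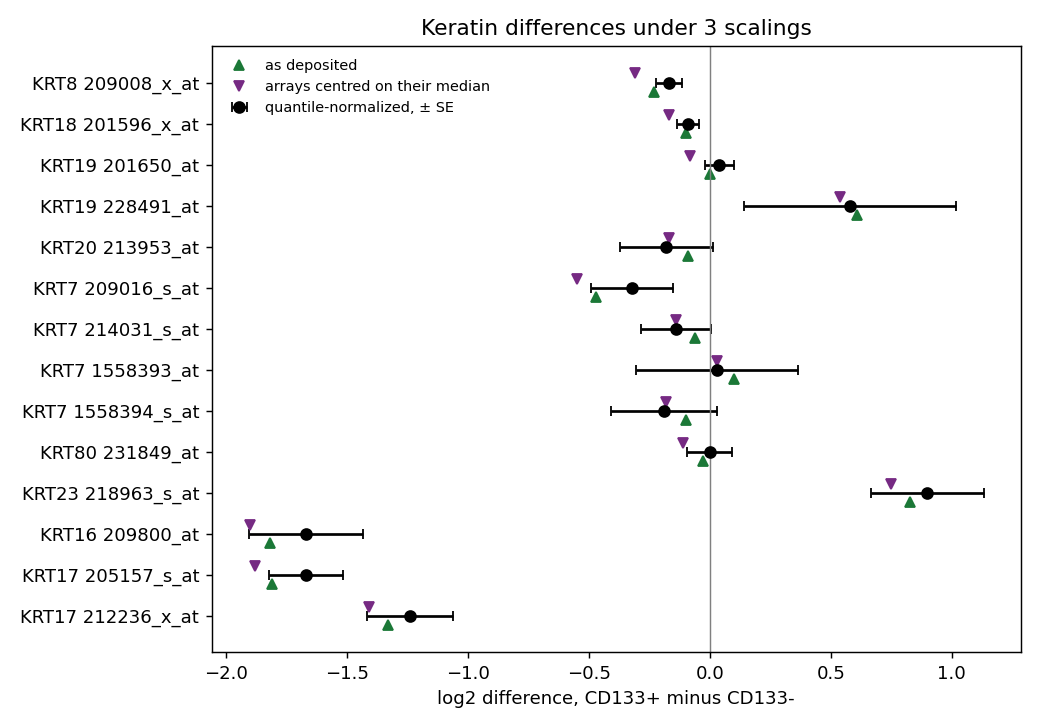
Log2 difference, CD133+ minus CD133- (horizontal axis), of each keratin probe set after quantile normalization (black, bars are ± 1 SE), as deposited (green) and with arrays centred on their median (purple). KRT16 and KRT17 stay between -1.24 and -1.90 and KRT23 between 0.75 and 0.90 under all 3 scalings, while the brighter KRT19 probe set moves between 0.04 and -0.08.

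For KRT16, KRT17 and KRT23 the scaling shifted the difference by little compared with its size. KRT16 was at -1.82 as deposited and -1.90 with centred arrays, 205157_s_at at -1.81 and -1.88, and 212236_x_at at -1.33 and -1.41. KRT23 was at 0.83 and 0.75. The small differences of KRT8 and KRT18 moved by more in proportion. KRT8 was at -0.23 as deposited and -0.31 with centred arrays, beside -0.17, and KRT18 was at -0.10 and -0.17, beside -0.09, each negative under all 3 scalings.

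**Figure D3:**
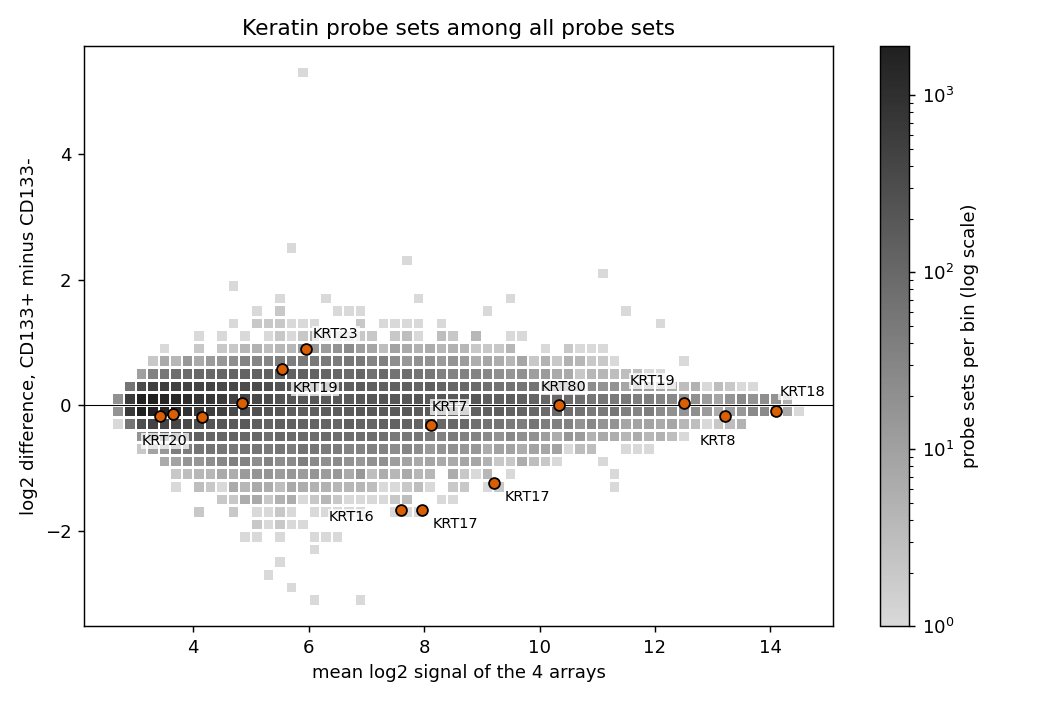
Log2 difference, CD133+ minus CD133- (vertical axis), against mean log2 signal of the 4 arrays (horizontal axis), with all 54613 probe sets as grey squares shaded by their number per bin and the 14 keratin probe sets as orange points. KRT16 and KRT17 lie at the lower edge of the cloud at differences of -1.24 to -1.67, KRT23 lies near its upper edge at 0.90, and the bright KRT8 and KRT18 lie close to 0.

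The profile of KRT16, whose difference of -1.67 equalled that of the KRT17 probe set 205157_s_at at the digits given and was the largest in size with it, was set against those of all other genes tested. Likeness was the Euclidean distance over the 4 arrays between log2 values centred on their own mean, a smaller distance meaning a more similar pattern. The nearest gene was SPAG16, a sperm-tail axoneme protein, at 0.0997, with 4.99 and 5.73 in CD133+ cells against 7.04 and 7.14 in CD133- cells. NR2F1, an orphan nuclear receptor, followed at 0.151, the RNA methyltransferase cofactor WDR4 at 0.198, the serpin SERPINB5 at 0.375 and the non-coding RNA NR2F1-AS1 at 0.424. The KRT17 probe sets lay at 0.424 (205157_s_at) and 0.577 (212236_x_at). All 5 genes were lower in CD133+ cells without overlap, as the choice of profile fixes. For SPAG16 and for WDR4, 2 of 3 probe sets had this sign.

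Genes next to the keratins on their chromosomes were then examined, a comparison added after seeing the data. Of all genes tested, 3.65% passed in limma at an adjusted p under 0.05, so 0 among so few neighbours says little. Counts at an unadjusted p under 0.05, here and in the lists below, are given without the share of all genes at that cut. Nothing is read from them. Among the 5 protein-coding genes on either side of KRT16 and KRT17 in RefSeq order, 8 genes that are not listed keratins were tested, and 0 passed in limma at an adjusted p under 0.05, with 2 at an unadjusted p under 0.05 and 1 that passed without CD133+ replicate 1. Their differences ran from -0.21, for KRT14, to 0.96, for the hormone gene GAST (SE 0.218, limma adjusted p = 0.0546). JUP, the junction protein plakoglobin, was at 0.23 (SE 0.0994, limma adjusted p = 0.236). Around KRT8 and KRT18, 0 of 10 tested genes passed and 2 had an unadjusted p under 0.05, with differences from -0.33 to 0.55. Around KRT23, 0 of 3 tested genes passed and 2 had an unadjusted p under 0.05, KRT40 at 0.76 (SE 0.223, limma adjusted p = 0.111) and KRTAP3-1, a hair keratin-associated protein, at 0.66 (SE 0.209, limma adjusted p = 0.135).

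Other keratins showed no difference that passed. Of 36 further keratin genes with a probe set, 23 were bright enough to be tested, and 0 were higher and 0 lower at a limma adjusted p under 0.05, where 1.31% of all genes were higher and 2.34% lower (3.65% in all). At an unadjusted p under 0.05 there were 2. Moderation with 1 common prior variance, in place of one that follows the level, also called 0, but it called only 12 of all genes tested. A fit with the replicate number as a block, which called 3030 of all genes, called KRT3 and KRT40. Their median difference was 0.01, beside 0.0582 over all genes, within a range of -0.34 to 0.76. KRT40, a hair follicle keratin, had 4.51 and 5.06 in CD133+ cells, against 4.11 and 3.95 in CD133- cells, higher on both arrays, with an adjusted p of 0.111 in limma that was 0.0346 without CD133+ replicate 1. KRT3, a type II keratin of the cornea, was at 0.55 (SE 0.197, limma adjusted p = 0.166). KRT5, the type II keratin of basal squamous cells, was at -0.34 (SE 0.192, limma adjusted p = 0.361), and KRT76, a keratin of the oral lining, at -0.33 (SE 0.229, limma adjusted p = 0.455).

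Proteins of desmosomes and hemidesmosomes, the junctions to which keratin filaments attach, were examined next. Of 18 tested, 0 were higher, 1 was lower and 17 did not pass in limma, with a median of -0.08. An unadjusted p under 0.05 in limma was seen in 9, with no share of all genes to set beside it. CD151, a tetraspanin of hemidesmosomes, fell by 0.61 on the log2 scale (SE 0.107, limma adjusted p = 0.0231), with 8.66 and 8.68 in CD133+ cells, against 9.25 and 9.32 in CD133- cells. Leaving out CD133- replicate 1 raised its limma adjusted p to 0.132, and leaving out CD133- replicate 2 raised it to 0.0932. In neither case did any gene of the list pass. With 1 common prior variance its limma adjusted p was 0.107.

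Of 16 tested squamous and cornified envelope genes, the setting in which KRT16 and KRT17 are best known, 1 was higher, 1 was lower and 14 did not pass in limma (2 at an unadjusted p under 0.05, median 0.16). KLK10, a secreted kallikrein protease, fell by 1.55 on the log2 scale (SE 0.217, limma adjusted p = 0.0128), with 4.80 and 4.92 in CD133+ cells, against 6.55 and 6.26 in CD133- cells. SCEL, sciellin of the cornified envelope, rose by 0.66 (SE 0.133, limma adjusted p = 0.0377), with 9.36 and 9.07 in CD133+ cells, against 8.61 and 8.49 in CD133- cells. The SCEL call was lost in the deposited scale (limma adjusted p = 0.128), with centred arrays (0.221), with its probe sets averaged (0.203) and with 1 common prior variance (0.128). It was also lost when CD133+ replicate 1 was left out (0.0757), and likewise for CD133- replicate 1 (0.125) and 2 (0.0994). Of its 4 probe sets 3 had this sign. KLK10 kept its call without any 1 array and had an adjusted p of 0.0584 in limma with 1 common prior variance. With its probe sets averaged its difference was -0.87 (limma adjusted p = 0.0433).

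No member passed in limma of 13 other intermediate filament proteins (2 at an unadjusted p under 0.05, median 0.13), of 15 chaperones, kinases and binding proteins of keratins (4 at an unadjusted p under 0.05, median 0.06) or of 13 epithelial transcription factors (2 at an unadjusted p under 0.05, median 0.11). The fit with 1 common prior variance also called 0 in each, but it called only 12 of all genes. With the replicate number as a block, which called 3030 of all genes, the calls were 1, 3 and 3 in that order. VIM, vimentin, the intermediate filament protein of mesenchymal cells, was bright in both clones at 12.85 ± 0.202 in CD133+ and 12.62 ± 0.0491 in CD133- cells (SD, n = 2 each), a difference of 0.24 (SE 0.0983, limma adjusted p = 0.224) that passed without CD133+ replicate 2 (0.0174) and had this sign in 1 of 2 probe sets. The nuclear lamin gene LMNA was at 0.31 (SE 0.118, limma adjusted p = 0.190). CASP6, a caspase that cleaves keratin 18, was at -0.88 (SE 0.245, limma adjusted p = 0.0953), with 0.0488 without CD133+ replicate 1, and SFN, the 14-3-3 protein sigma that binds KRT17 in mouse skin cells, at -0.19 (SE 0.0668, limma adjusted p = 0.161). SOX9, a factor of crypt cells, was at 0.40 (SE 0.0962, limma adjusted p = 0.0654), and the epithelial factor EHF at -0.51 (SE 0.139, limma adjusted p = 0.0907), with 0.0257 without CD133+ replicate 1 and this sign in 5 of 6 probe sets.

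**Figure D4:**
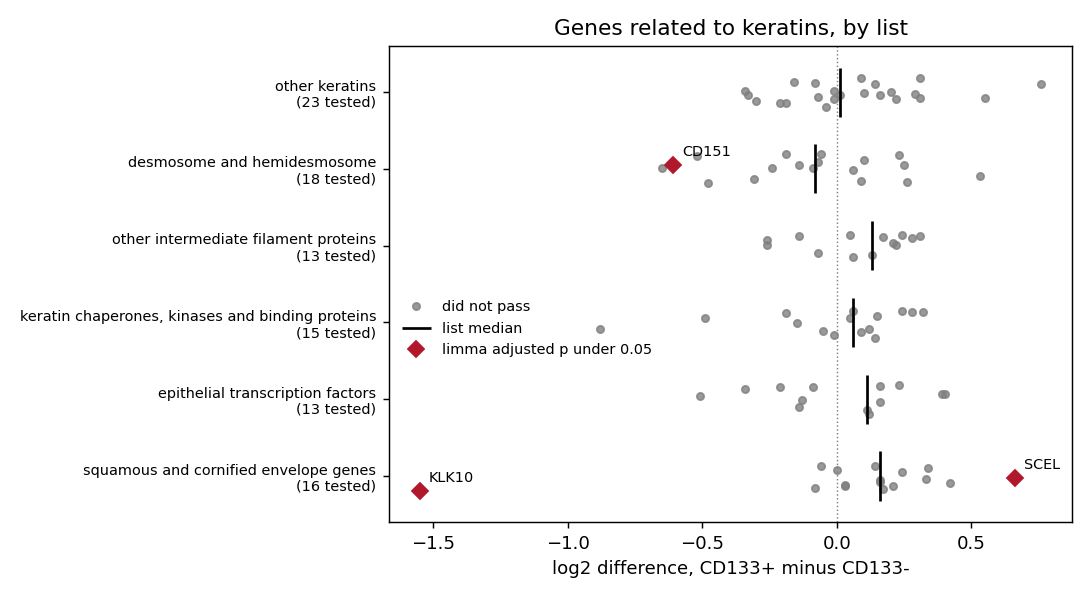
Log2 difference, CD133+ minus CD133- (horizontal axis), of each tested gene in 6 lists related to keratins, 1 point per gene, with red diamonds for genes past a limma adjusted p under 0.05 and a black line at the median of each list. KLK10 at -1.55, CD151 at -0.61 and SCEL at 0.66 are the genes that passed, and the list medians lie between -0.08 and 0.16.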

How the data were processed

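The authors deposited 1 log2 signal per probe set for each of 4 Affymetrix arrays. Affymetrix Expression Console made them, per the submitters' processing notes; its settings, such as the background correction and normalization, are not given in the sources used here. Medians of the deposited arrays spanned 0.144, above the limit of 0.1, so the 54613 probe sets other than the 62 controls were quantile-normalized, which removes any true difference in the overall distribution. Names came from the platform annotation (41091 probe sets with 1 gene, 1801 with several, 11721 unlisted). Keratin differences and their errors came from a limma 3.58.1 fit (R 4.3.3, lmFit and eBayes with a trend) to all probe sets. Lists were tested on the brightest probe set of each gene, leaving out the lowest 20% of genes by mean level, with Benjamini-Hochberg adjustment over 15821 genes and calls at an adjusted p under 0.05. With 2 arrays a group an exact two-sided permutation test cannot go below 0.333, so calls rest on limma's shared variance. The number of arrays limits the precision (median SE 0.178). On simulated data with 200 genes changed by 2 log2 units, and replicate spreads shuffled across genes, this fit recovered 75% of them. No keratin or list difference over all 4 arrays was that large, and the recovery of smaller changes was not simulated. Named genes were all 10 keratins, PROM1, in each list the called genes (at most 4 in each direction) or the 2 with the smallest p, the 4 further keratins with the largest difference, and the 5 profiles nearest to the keratin probe set with the largest difference. GAST, JUP, KRT14, KRTAP3-1, DSG3, EPCAM, LGALS4, FABP1, PHGR1, CEACAM5, VIL1, SYP, CHGA, INSM1, CDX1, CDX2 and KRT17P5 were named after their values were seen. The keratins and the lists were chosen with earlier results of these data known. Alternatives were the values as deposited, centred arrays, no filter on level, 1 common prior variance (no trend), averaging a gene's probe sets, the replicate number as a block, and leaving out each array, which leaves a lone array assumed to vary like the other group.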

Additional observations from a re-analysis of the deposited data

How the results depend on the processing

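The groups did not overlap for KRT16, both KRT17 probe sets, KRT23, KRT8, KRT18 and the KRT7 probe sets 209016_s_at and 214031_s_at. These 8 probe sets kept their sign under every scaling. They also kept it without any 1 array, but the lack of overlap fixes that in advance. The number of keratin probe sets with no overlap, 8, ran from 9 to 13 when 1 array at a time was left out, where the share over all probe sets ran from 66.7% to 76.3%, against 43.9% with all arrays. All genes called, 577, were 3030 with the replicate number as a block, 12 with 1 common prior variance and 247 when probe sets of a gene were averaged, and ran from 124 (without CD133- replicate 1) to 706 without 1 array. Of the called genes 35.9% were higher in CD133+ cells, 21.3% as deposited and 11.4% with centred arrays. The replicate numbers are shared by the clones in the titles only. The difference of replicate 1 from replicate 2 in CD133+ cells correlated across genes with that in CD133- cells at r = 0.429. This is 1 correlation from 2 arrays a clone, too few to settle a pairing, and the main fit does not use the replicate number. With the replicate block the calls were 2 other keratins (KRT3 and KRT40), 8 desmosome and hemidesmosome genes, 1 other intermediate filament gene, 3 chaperones, kinases and binding proteins, and 3 epithelial transcription factors. With centred arrays the desmosome list had 3 calls, and with 1 common prior variance it and the squamous list had 0 each. The squamous list had 1 call as deposited, 1 with centred arrays and 1 with averaged probe sets. Leaving out 1 array, the calls ran from 0 to 1 for other keratins, other intermediate filament proteins, chaperones and transcription factors, from 0 to 3 for the desmosome list and from 1 to 2 for the squamous list. Of the keratin neighbours, the block called 1 around KRT16 and KRT17, 2 around KRT23 and 2 around KRT8 and KRT18. The causes of these changes were not tested. Signals near the floor (KRT20 and the KRT7 probe set 214031_s_at) and near the top (KRT18) limit what these arrays can show.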

Other observations

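Probe sets of keratin pseudogenes were also on the arrays. KRT8P12 had 6.71 and 7.44 in CD133+ cells, against 6.60 and 7.17 in CD133- cells in 222060_at, and 4.21 and 4.96 against 4.49 and 5.14 in 230116_at. In both, replicate 1 lay below replicate 2 in both clones, as in the KRT7 probe set 1558393_at, and the clones overlapped (differences 0.19, SE 0.290, and -0.23, SE 0.320). KRT19P2 had 3.55 and 3.88 in CD133+ cells, against 3.78 and 4.07 in CD133- cells in 217338_at (difference -0.21, SE 0.192). In 217350_at, which the annotation assigns to KRT19P2 and MIR492 together, the values were 4.14 and 4.76 in CD133+ cells, against 4.41 and 4.31 in CD133- cells, a difference of the other sign with overlapping groups (0.09, SE 0.248). Fitted over all probe sets, the limma adjusted p of these 4 ran from 0.697 to 0.917.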
